A study of Canis lupus familiaris with 9 samples.

Results

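The genes described here are 41 macrophage and myeloid immune genes, measured in skeletal muscle of beagles fed without restriction and of beagles held at constant body weight. A gene was taken when an array probe set carried its symbol and no other, and where a gene had several, the probe set whose mean over the 9 arrays was highest stood for it. Of the 41 genes, 40 had such a probe set, out of 15115 genes on the array. HCLS1, a leukocyte cortactin-like adaptor, had none. Animals 2, 5, 6, 7 and 8 (n = 5) were fed ad libitum, that is without limit, and animals 1, 3, 4 and 9 (n = 4) were controls, given the amount that kept body weight at baseline. All were intact female beagles, 4 years old, all ate Purina Pro Plan Performance Formula, and muscle was sampled at 24 weeks, after an overnight fast. Each dog gave 1 Affymetrix canine array, and the number of dogs limits the precision. The values are GCRMA values, taken as log2, and a value near or under log2 4 is close to the array's background, so that its size is uncertain.

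Macrophages reside in the connective tissue between muscle fibres and around vessels, and monocytes from blood join them after injury or in inflammation. They take up debris through scavenger receptors, sense microbes and lipids through Toll-like receptors, and present peptides on class II molecules of the major histocompatibility complex. CSF1, acting through its receptor CSF1R, keeps the lineage alive, and the transcription factor SPI1 (PU.1) drives much of its gene expression. Many of the genes below are shared by other leukocytes, and LGALS3 and SPP1 are also made by cells that are not leukocytes. The arrays measured whole tissue, in which more cells of a type and more RNA per cell cannot be told apart.

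The 40 genes were higher on average in ad libitum muscle, but not in every dog of the group, and no gene passed the test. Averaged over the 40 genes, the level was 4.86, 6.80, 5.42, 4.12 and 4.56 in ad libitum dogs 2, 5, 6, 7 and 8, and 4.51, 4.13, 4.21 and 4.16 in control dogs 1, 3, 4 and 9. Dog 5 stood highest, dogs 6, 2 and 8 followed above all control dogs, and dog 7 lay below all of them, so the groups overlapped. Dog 5 had the highest value of all 9 dogs for 34 of the 40 genes, or 85.0%. Among the 19 of these genes that were tested it was highest for 18, whereas it was highest for 10.1% of all tested probe sets. Dog 5 exceeded every control dog in 36 genes, dog 6 in 30, dog 2 in 25, dog 8 in 9 and dog 7 in 1. The same counts over all probe sets were not made, so these describe the 40 genes only. Among the controls, dog 1 was the highest in 26 genes. For the 5 ad libitum dogs this average was 5.15 ± 1.03 (SD), and for the 4 control dogs 4.25 ± 0.17 (SD).

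**Figure D1:**
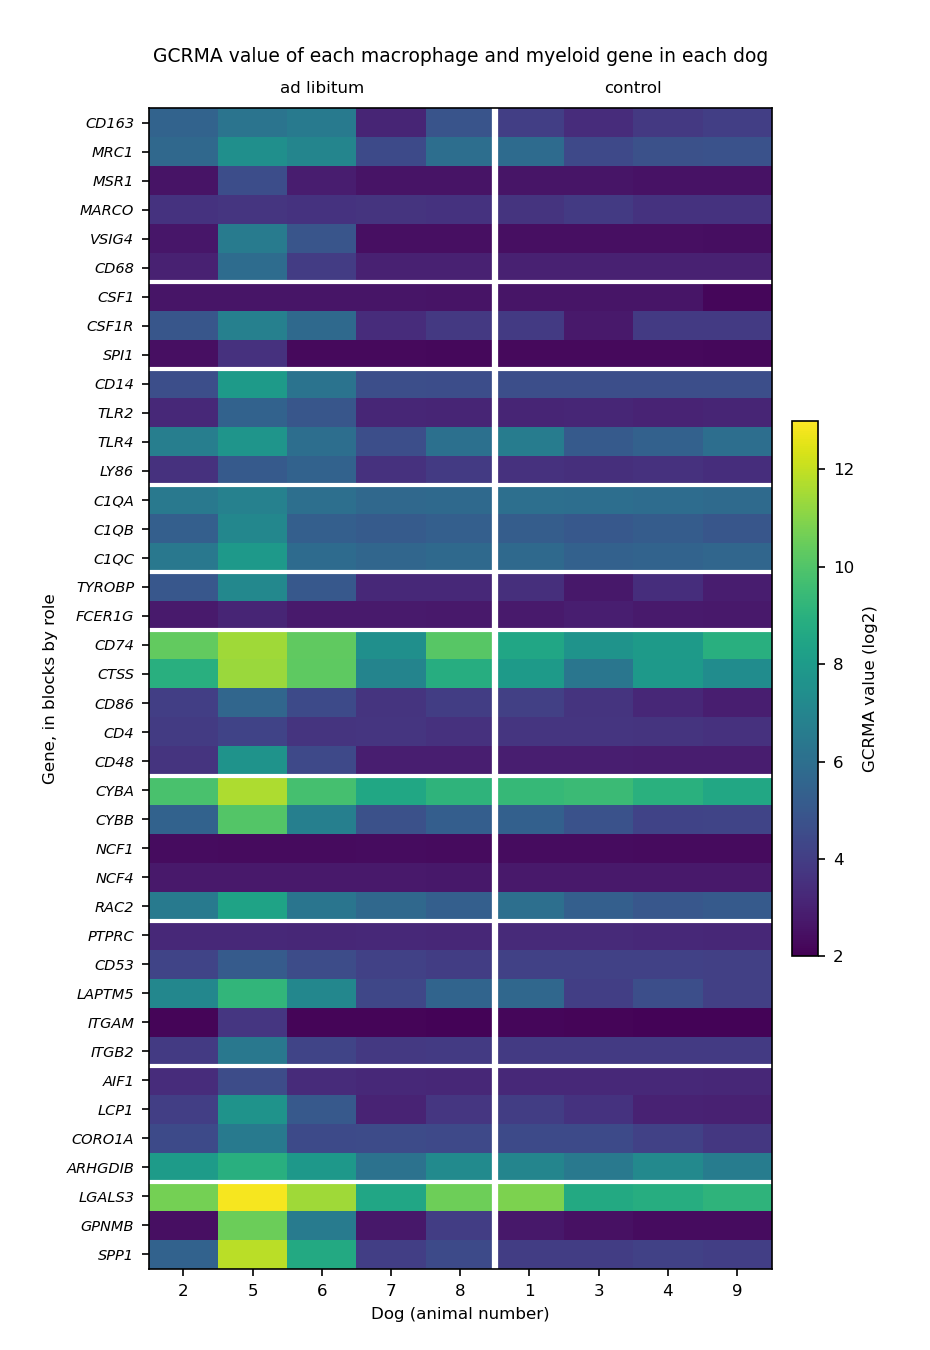
The GCRMA value (log2, colour) of the 40 measured genes (rows, in blocks by role) in each dog (columns, by animal number). Dog 5 is the brightest column in most rows, dog 6 follows in many, and dog 7 resembles the control dogs. Colours compare dogs within a row, since values of different probe sets are not comparable.

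Of the 40 genes, 36 had a higher mean in ad libitum dogs and 4 (MARCO, NCF1, NCF4 and PTPRC) a lower one, with differences of at most 0.05 for these 4. Over all 42924 probe sets that are not controls, 29.9% had a higher mean in ad libitum dogs. Among those above log2 4 on at least 4 arrays the share was 48.4%, so it depends on whether low probe sets are counted. The median log2 difference was 0.77 over the 40 genes and -0.016 over all 42924 probe sets. Group means were above log2 4 in both groups for 17 genes, in ad libitum dogs alone for 9 (CD163, CSF1R, LY86, TYROBP, CD86, CD48, ITGB2, LCP1 and GPNMB), and in neither group for 14. No gene had a mean above log2 4 in control dogs alone. Nearest to this level were TLR2, with a mean of 3.99 in ad libitum dogs, and SPP1, with a mean of 4.04 in control dogs. In 8 genes (MARCO, CSF1, SPI1, FCER1G, NCF1, NCF4, PTPRC and ITGAM) no dog exceeded log2 4 on the probe set that stood for the gene.

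Differences were tested with limma on the 18394 probe sets that exceeded log2 4 on at least 4 arrays, among them 19 of the 40 genes. All 19 had a higher mean in ad libitum dogs, as did 48.4% of the tested probe sets, and their median log2 difference was 0.98, against -0.008 for the tested probe sets. With Benjamini-Hochberg adjustment, 0 of the 19 genes and 0% of all tested probe sets had an adjusted p under 0.05. The adjusted p of the 19 ran from 0.796 to 0.902. Without adjustment, limma gave 4 of 19 genes a p under 0.05 (CD163, CD74, CTSS and LAPTM5), all higher in ad libitum dogs, where 3.71% of all tested probe sets were higher with such a p. This count was 0 without ad libitum dog 2, 5 or 6 or control dog 3, 1 without control dog 4 or 9, and 10 without ad libitum dog 7. It was 11 with array weights, which limma estimates from how far each array lies from its group in these same values. With no filter on low values, 0 of 40 genes had an unadjusted limma p under 0.05, against 1.52% of probe sets that were higher with such a p. In 0 genes did all ad libitum dogs lie above all control dogs, against 0.739% of tested probe sets. Because ad libitum arrays alone could carry a gene past the filter, the 19 are not a neutral selection. This holds for CD163, among the 4 named above, which exceeded log2 4 in 4 ad libitum dogs and in 2 control dogs. The 15 genes above log2 4 in all 4 control dogs would have passed on control arrays alone. With that filter, 3 of 15 genes had an unadjusted limma p under 0.05, as did 1011 of 17501 probe sets in either direction. All 15 had higher means in ad libitum dogs, with a median log2 difference of 0.98. This median and that of the 19 are both the value of CD14, which lay at a floor of 4.63 in every control dog. Their equality therefore says nothing about the selection.

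**Figure D2:**
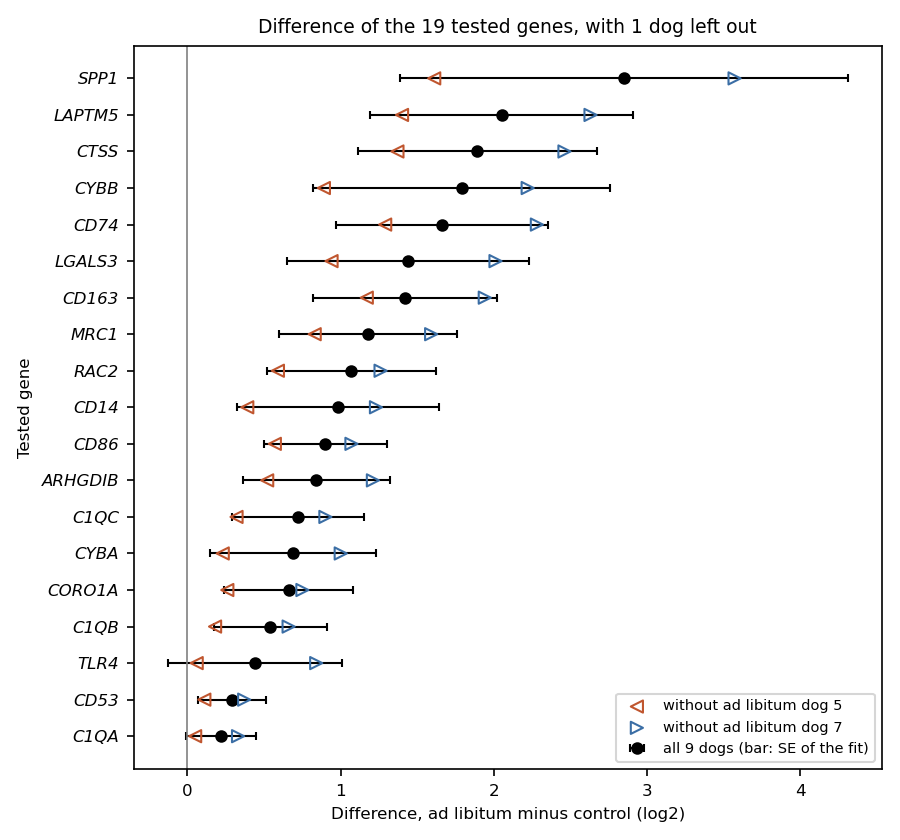
The log2 difference, ad libitum minus control, of the 19 tested genes with all 9 dogs (black points, bars are the SE of the fit), without ad libitum dog 5 (left-pointing triangles) and without ad libitum dog 7 (right-pointing triangles). All differences are above 0. Each shrinks without dog 5 and grows without dog 7.

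The scavenger and clearance receptors mark tissue macrophages. CD163, which takes up haemoglobin bound to haptoglobin, had 5.50, 6.24, 6.48, 3.15 and 4.86 in ad libitum dogs 2, 5, 6, 7 and 8, against 4.06, 3.40, 3.84 and 4.04 in control dogs 1, 3, 4 and 9. Dogs 2, 5, 6 and 8 lay above all controls and dog 7 below them, with a log2 difference of 1.42 (SE 0.60). The mannose receptor MRC1, a marker of resident macrophages, had 5.70, 7.49, 6.99, 4.46 and 5.98 in ad libitum dogs, against 5.86, 4.42, 4.73 and 4.78 in control dogs. Dogs 5, 6 and 8 exceeded every control, dogs 2 and 7 lay within the control range, and the log2 difference was 1.18 (SE 0.58). The means of a second tested probe set differed by 1.04 for MRC1 and by 0.79 for CD163.

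VSIG4, the complement receptor of tissue-resident macrophages, had 2.67, 6.58, 4.88, 2.44 and 2.43 in ad libitum dogs and 2.42 to 2.46 in control dogs. CD68, a lysosomal glycoprotein of macrophages, had 3.02, 5.89, 3.95, 3.02 and 3.01 in ad libitum dogs and 3.01 to 3.03 in control dogs. VSIG4 thus exceeded log2 4 in dogs 5 and 6, and CD68 in dog 5. A second probe set of CD68 had 3.62, 7.03, 4.07, 3.01 and 2.68 in ad libitum dogs and 2.22 to 2.79 in control dogs, with dog 5 again highest and dog 6 just above log2 4. The class A scavenger receptor MSR1 exceeded log2 4 in dog 5 alone, at 4.62, while MARCO, another receptor of that class, stayed between 3.59 and 3.85 in all 9 dogs.

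Of the lineage genes, the receptor CSF1R had 4.93, 6.79, 5.75, 3.40 and 3.83 in ad libitum dogs, against 3.88, 2.74, 3.85 and 3.86 in control dogs. Dogs 2, 5 and 6 lay above log2 4 and above all controls, and dogs 7 and 8 did not. CSF1R did not pass the filter, and its means differed by 1.36, or by 0.90 without dog 5. The ligand CSF1 was at 2.20 to 2.64 in all dogs, and SPI1 was at 3.57 in dog 5 and at 2.23 to 2.44 in the other dogs.

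Among the receptors for microbial products, CD14, which hands lipopolysaccharide to TLR4, had 4.63, 7.99, 6.19, 4.63 and 4.62 in ad libitum dogs and 4.63 in each control dog. The other 7 dogs lay at 4.62 or 4.63, close to a floor of this probe set, and dogs 5 and 6 stood above it. The log2 difference was 0.98 (SE 0.66), and 0.39 without dog 5. TLR4, the lipopolysaccharide receptor, had 6.70, 7.75, 5.99, 4.63 and 6.08 in ad libitum dogs, against 6.62, 5.13, 5.40 and 5.99 in control dogs. Here the groups overlapped widely, and the log2 difference of 0.44 (SE 0.57) was 0.06 without dog 5. TLR2, the receptor for bacterial lipoproteins, exceeded log2 4 in dogs 5 and 6 alone, at 5.47 and 4.93. LY86, a secreted partner of the Toll-like family member CD180, did the same at 5.10 and 5.44.

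The complement protein C1q is assembled from chains encoded by C1QA, C1QB and C1QC, and tissue macrophages are its main source. C1QA had 6.45, 6.83, 6.00, 5.70 and 5.74 in ad libitum dogs, against 6.00, 5.99, 5.90 and 5.81 in control dogs. C1QB had 5.32, 7.08, 5.35, 5.14 and 5.32 in ad libitum dogs, against 5.26, 5.02, 5.20 and 4.94 in control dogs. C1QC had 6.40, 7.90, 5.85, 5.61 and 5.74 in ad libitum dogs, against 5.77, 5.42, 5.50 and 5.61 in control dogs. The highest value of each chain was that of dog 5, and the control dogs lay close together. The log2 differences were 0.22 (SE 0.23) for C1QA, 0.54 (SE 0.37) for C1QB and 0.72 (SE 0.43) for C1QC. They were 0.05, 0.18 and 0.32 without dog 5. The other probe sets of C1QA and C1QC differed by 0.92 and 1.09, so the size for these chains varied with the probe set.

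TYROBP (DAP12), a signalling adaptor of myeloid receptors with an immunoreceptor tyrosine-based activation motif, had 4.99, 7.13, 5.03, 3.28 and 3.26 in ad libitum dogs, against 3.49, 2.69, 3.43 and 2.87 in control dogs. Dogs 2, 5 and 6 lay above log2 4 and no control dog did. TYROBP did not pass the filter, and its means differed by 1.62, or by 1.02 without dog 5. FCER1G, the Fc receptor gamma chain with a like role, was at 2.76 to 3.16 in all 9 dogs.

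Genes of antigen presentation gave 3 of the 19 tested genes. CD74, the invariant chain that guides class II molecules, had 10.34, 11.44, 10.32, 7.48 and 10.14 in ad libitum dogs, against 8.52, 7.66, 7.99 and 8.96 in control dogs. Ad libitum dogs 2, 5, 6 and 8 exceeded all controls and dog 7 lay below them, with a log2 difference of 1.66 (SE 0.69). It was 1.29 without dog 5 and 2.28 without dog 7, and the other probe sets of CD74 differed by 1.41 and 1.19. CTSS, the lysosomal protease that trims the invariant chain, had 8.96, 11.34, 10.27, 6.98 and 8.87 in ad libitum dogs, against 8.00, 6.33, 7.93 and 7.33 in control dogs. The same 4 ad libitum dogs lay above all controls and dog 7 lay within their range, with a log2 difference of 1.89 (SE 0.78). The second probe set of CTSS differed by 2.16.

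CD86, a costimulatory ligand for T cells, had 4.02, 5.65, 4.48, 3.67 and 4.00 in ad libitum dogs, against 4.08, 3.65, 3.21 and 2.94 in control dogs. Most of these values were near background, and the log2 difference was 0.90 (SE 0.40), or 0.57 without dog 5. CD48, an adhesion ligand of leukocytes, had 3.66, 7.64, 4.43, 2.94 and 2.91 in ad libitum dogs and 2.90 to 2.94 in control dogs, so it exceeded log2 4 in dogs 5 and 6. CD4, a coreceptor of helper T cells that canine neutrophils also carry, exceeded log2 4 in dog 5 alone, at 4.21.

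**Figure D3:**
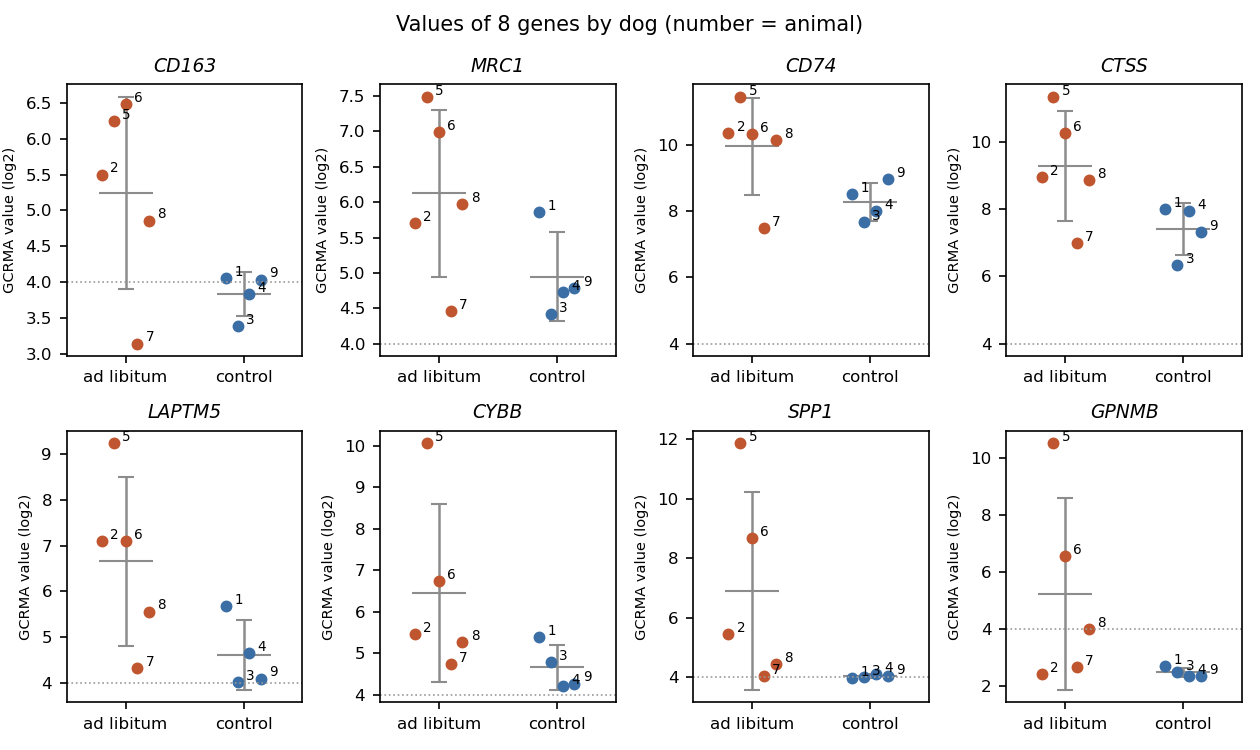
The GCRMA value (log2) of 8 genes in each dog (points, labelled by animal number), with the group mean and SD (grey) and the level log2 4 (dotted). Ad libitum dog 5 is the highest point in each panel except that of CD163, where dog 6 is, and ad libitum dog 7 lies among or below the control dogs.

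The phagocyte NADPH oxidase makes superoxide. Its membrane part is formed by CYBB (gp91phox) and CYBA (p22phox), and NCF1, NCF4 and RAC2 are cytosolic parts. CYBB had 5.46, 10.06, 6.73, 4.74 and 5.28 in ad libitum dogs, against 5.38, 4.79, 4.20 and 4.27 in control dogs. Dog 5 stood far above all others, and the log2 difference of 1.79 (SE 0.97) was 0.89 without it. CYBA had 9.83, 11.64, 9.76, 8.57 and 9.15 in ad libitum dogs, against 9.35, 9.48, 8.99 and 8.58 in control dogs. Dogs 2, 5 and 6 exceeded all controls, and the log2 difference was 0.69 (SE 0.54), or 0.23 without dog 5.

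RAC2, a small GTPase of blood cells, had 6.54, 8.37, 6.27, 5.70 and 5.33 in ad libitum dogs, against 6.01, 5.34, 4.99 and 5.13 in control dogs. Dogs 2, 5 and 6 again exceeded all controls, and the log2 difference was 1.07 (SE 0.55), or 0.59 without dog 5. A second probe set of RAC2, above log2 4 on 0 arrays, differed by 0.21. NCF1 and NCF4 were at 2.33 to 2.36 and at 2.73 to 2.77 in all 9 dogs, and dog 5 did not stand apart for either.

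Of the leukocyte membrane proteins, LAPTM5, a lysosomal protein of blood cells, had 7.09, 9.23, 7.09, 4.33 and 5.56 in ad libitum dogs, against 5.68, 4.02, 4.65 and 4.10 in control dogs. Dogs 2, 5 and 6 exceeded all controls and dogs 7 and 8 lay within their range. The log2 difference was 2.05 (SE 0.86), with 1.40 without dog 5 and 2.63 without dog 7. The other probe sets of LAPTM5, above log2 4 on 0 and 1 arrays, differed by 0.11 and 1.26. The tetraspanin CD53 had 4.25, 5.14, 4.54, 4.12 and 3.99 in ad libitum dogs, against 4.12, 4.12, 4.12 and 4.09 in control dogs. CD53 was near its floor in most dogs, and the log2 difference was 0.29 (SE 0.22), or 0.11 without dog 5.

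ITGB2, the beta chain of the leukocyte integrins, was at 6.40 in dog 5 and 4.27 in dog 6, and at 3.84 to 3.89 in the other 7 dogs. Its partner chain ITGAM was at 3.72 in dog 5 and at 2.10 to 2.21 in the other 8 dogs. The probe set of PTPRC (CD45), the phosphatase of all leukocytes, was at 3.21 to 3.31 in every dog. Another probe set of PTPRC was at 4.56 in dog 5 and 4.07 in dog 6, and at 2.92 to 2.96 in the other 7 dogs. It differed by 0.55 and the remaining probe set of PTPRC by 0.09, so the flat value belongs to the probe set with the highest mean and not to every probe set of the gene.

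Among the regulators of the actin cytoskeleton, ARHGDIB, an inhibitor of small GTPases in blood cells, had 8.05, 8.94, 7.87, 6.16 and 7.25 in ad libitum dogs, against 7.01, 6.45, 7.18 and 6.61 in control dogs. Dogs 2, 5, 6 and 8 exceeded all controls and dog 7 lay below them, with a log2 difference of 0.84 (SE 0.48), or 0.52 without dog 5. The actin-binding coronin CORO1A had 4.49, 6.47, 4.47, 4.51 and 4.42 in ad libitum dogs, against 4.48, 4.47, 4.13 and 3.77 in control dogs. Only dog 5 stood apart, and the log2 difference of 0.66 (SE 0.42) was 0.26 without it. The actin bundler LCP1 (L-plastin) had 4.02, 7.64, 5.08, 3.08 and 3.73 in ad libitum dogs and 3.02 to 3.99 in control dogs. AIF1 (IBA1), a marker of macrophages and microglia, exceeded log2 4 in dog 5 alone, at 4.57.

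The secreted and lysosomal products include a pair of genes, SPP1 and GPNMB, that spanned a wide range between dogs. SPP1 (osteopontin), a matrix-associated cytokine, had 5.44, 11.86, 8.69, 4.03 and 4.45 in ad libitum dogs, against 3.99, 4.00, 4.12 and 4.05 in control dogs. Ad libitum dogs 2, 5, 6 and 8 exceeded all controls, which lay at background, and dog 7 lay among them. The log2 difference was 2.85 (SE 1.46), 1.61 without dog 5 and 3.57 without dog 7, and the second probe set of SPP1 differed by 2.92. GPNMB, a glycoprotein of lipid-laden and phagocytic macrophages, had 2.45, 10.53, 6.56, 2.69 and 4.00 in ad libitum dogs and 2.37 to 2.71 in control dogs. It was thus above background in dogs 5 and 6, and its means differed by 2.75, or by 1.43 without dog 5. LGALS3 (galectin-3), a lectin of macrophages and other cells, had 10.71, 12.83, 11.44, 8.52 and 10.59 in ad libitum dogs, against 10.82, 8.70, 8.85 and 9.15 in control dogs. Dogs 5 and 6 exceeded all controls, control dog 1 lay beside dogs 2 and 8, and the log2 difference was 1.44 (SE 0.79), or 0.94 without dog 5.

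The spread between dogs was wider in the ad libitum group. The SD among ad libitum dogs exceeded that among control dogs in 35 of the 40 genes, of which 21 were not tested. Over all tested probe sets it did so in 61.0%. Over the 19 tested genes the median SD was 1.18 in ad libitum and 0.403 in control dogs, and over all tested probe sets 0.306 and 0.253. Of the 19 genes, dog 5 exceeded all controls in 19, dog 6 in 17, dog 2 in 15, dog 8 in 7 and dog 7 in 1, and dog 7 lay below all controls in 8. These counts by dog have no counterpart here over all tested probe sets. Without dog 5, all 19 genes kept a higher mean in ad libitum dogs and the median difference was 0.57, and without dog 7 it was 1.23. Over all 40 genes and without dog 5, 34 had a higher mean in ad libitum dogs and the median difference was 0.36.

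Most genes with several probe sets gave the same direction from each. Of the 41 further probe sets of these genes, 35 had a higher mean in ad libitum dogs. The other 6 (of CD163, CORO1A, ITGB2, LGALS3, MARCO and TLR2) exceeded log2 4 on 0 arrays each. For MARCO the probe set that stood for the gene was lower as well, so the direction was the same. For NCF1, NCF4 and PTPRC it was lower, while the further probe sets were higher, by 0.01 for NCF1, 0.10 for NCF4, and 0.55 and 0.09 for PTPRC. Averaging all probe sets of a gene, low ones included, gave a log2 difference of 0.58 for CD163, 0.57 for C1QA, 0.64 for RAC2, 1.14 for LAPTM5, 0.32 for CORO1A and 0.94 for LGALS3.

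Other genes of myeloid and neighbouring cells were read as lists, in all of which 0 genes had an adjusted limma p under 0.05 in either direction. The counts at an unadjusted p under 0.05 that follow stand against 3.71% of all tested probe sets for genes that were higher and 2.21% for genes that were lower. The counts of higher means stand against 29.9% of all probe sets, and against 48.4% of tested probe sets for lists whose genes were mostly tested. Of 77 further myeloid genes, 56 were measured and 18 tested, with 5 at an unadjusted p under 0.05, all higher (0 without control dog 9, 2 without ad libitum dog 2 or control dog 4, 3 without ad libitum dog 5 or 6 or control dog 3, 13 without ad libitum dog 7), and 37 of the 56 had a higher mean in ad libitum dogs, with a median difference of 0.09. Dog 5 was the highest dog for 25 of the 56. SLC11A1, among the 5, exceeded log2 4 only in ad libitum dogs 2, 5, 6 and 8 and passed the filter through them alone. STAB1, also among the 5, exceeded log2 4 in the same ad libitum dogs and, of the controls, only in dog 1, at 4.15. The tested genes of a list are thus not a neutral selection either. CD209, a lectin of macrophages and dendritic cells, had a mean of 6.85 ± 1.16 (SD) over the 5 ad libitum dogs and of 5.70 ± 0.74 (SD) over the 4 controls. APOE, the apolipoprotein that macrophages and other cells secrete, stood at 10.02 ± 1.67 in ad libitum dogs and 8.11 ± 0.99 in controls, a log2 difference of 1.91 (SE 0.83). Lysozyme, LYZ, differed by 0.95 (SE 0.52), or 0.52 without dog 5, and the lipid receptor TREM2 by 0.19 (SE 0.21), or 0.03 without dog 5.

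Class II genes of the major histocompatibility complex encode the molecules that CD74 guides. The list read here also held CIITA and IFI30, entered as regulators, which differed by -0.05 (SE 0.09) and 0.02 (SE 0.46). Of 10 measured genes of that list 8 were tested, with 3 at an unadjusted p under 0.05, all higher (1 without ad libitum dog 2, 5, 6 or 8 or control dog 3 or 4, 2 without control dog 1 or 9, 6 without ad libitum dog 7), and 7 of the 10 had a higher mean in ad libitum dogs, with a median difference of 0.68. DLA-DRA, the DR alpha chain, was at 9.61 ± 1.77 (SD) in ad libitum dogs, against 7.73 ± 0.51 (SD) in controls. DLA-DQA1 differed by 2.69 (SE 0.86), DLA-DQB1 by 2.02 (SE 0.95) and DLA-DMA, a peptide exchange chain, by 0.58 (SE 0.31). DLA-DQA1, among the 3 genes counted above, exceeded log2 4 only in ad libitum dogs 2, 5, 6 and 8 and passed the filter through them alone. The list mean was 6.88, 7.64, 6.91, 5.31 and 6.39 in ad libitum dogs 2, 5, 6, 7 and 8, against 5.63, 5.53, 5.62 and 5.85 in control dogs 1, 3, 4 and 9. Dogs 2, 5, 6 and 8 exceeded all controls, and dog 7 was the lowest of all. Of 12 measured complement genes other than C1q, 9 had a higher mean in ad libitum dogs, among them C1R with a difference of 1.84 (SE 0.79), C1S with 1.76 (SE 0.82) and C3 with 1.57 (SE 0.87), while C2 had -0.22 (SE 0.14).

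Markers of other cell types were read in the same dogs. All 15 fibroblast and matrix markers had a higher mean in ad libitum dogs, and 8 of the 14 tested had an unadjusted limma p under 0.05, all higher. That count was 2 without control dog 3, and 4 when ad libitum dog 2 was left out. It was 5 without control dog 4 or 9 or ad libitum dog 6 or 8, and 13 without ad libitum dog 7. Their mean level was 9.90, 11.64, 10.22, 7.63 and 9.67 in ad libitum dogs, against 8.70, 7.48, 8.34 and 8.17 in control dogs, so dog 5 was highest and dog 7 lay within the control range. The collagen genes COL1A1, COL1A2, COL3A1 and COL5A1 differed by 3.02 (SE 0.97), 2.31 (SE 0.89), 3.27 (SE 1.01) and 2.12 (SE 0.85). Of 14 adipocyte markers, 13 had a higher mean in ad libitum dogs, and their mean level was 9.62, 9.01, 8.97, 7.72 and 8.78 in ad libitum dogs, against 8.49, 7.55, 6.88 and 8.07 in control dogs. Dog 2, not dog 5, was the highest for adipocyte markers, and LEP (leptin) and ADIPOQ (adiponectin) differed by 2.41 (SE 0.57) and 0.36 (SE 0.72). The lipid droplet genes PLIN1 and CIDEC differed by 0.35 (SE 0.26) and 0.69 (SE 0.70). The part of connective or fat tissue in the myeloid differences was not tested.

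Most markers of lymphocytes, mast cells and dendritic cells were at background in both groups. None of the 8 measured natural killer cell markers, 8 mast cell markers or 8 dendritic cell markers exceeded log2 4 on any array. Of 16 T cell markers 14 did not, and the exceptions were IL7R and CD8A. IL7R was at 4.77 in dog 5 and at 3.31 to 3.63 in the other dogs, and CD8A was at most 4.07, in control dog 1. The T cell list mean was also highest in dog 5, at 2.80 against 2.58 to 2.65, all of it at background. Of 8 markers of B and plasma cells, 6 did not either, while PAX5, at 4.29 to 4.77, and JCHAIN, the joining chain of secreted antibodies, at 7.14 to 8.27, exceeded that level in every dog and differed by -0.09 (SE 0.12) and -0.05 (SE 0.24). Neutrophil markers varied between dogs of both groups. S100A8 was at 8.27 ± 1.98 (SD) in ad libitum dogs, against 7.16 ± 2.55 (SD) in controls, and S100A9 differed by 0.61 (SE 1.02), or 0.03 without dog 5. CAMP was near background. Other neutrophil markers stood high in dog 5: MMP9, a secreted protease that macrophages also make, was at 10.08 in dog 5 and at 2.19 to 3.18 in the other 8 dogs. LTF (lactoferrin) was at 5.71 in dog 5 and at most 2.80 in the others. LCN2 (lipocalin) was at 6.34 and 6.91 in dogs 2 and 5 and at most 3.89 in the others. The neutrophil list mean ran from 3.12 to 5.34 in ad libitum and from 2.97 to 3.95 in control dogs, highest in dog 5, and its part in the values of dog 5 was not tested.

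Endothelial, blood and muscle markers did not follow this order of dogs. The endothelial list mean ran from 7.11 to 7.72 in ad libitum and from 7.26 to 7.64 in control dogs, and PECAM1, CDH5, VWF and KDR differed by 0.32 (SE 0.24), 0.19 (SE 0.20), -0.04 (SE 0.19) and -0.41 (SE 0.30). Of the 11 endothelial markers tested, FLT1, a receptor for vascular endothelial growth factor, had an unadjusted limma p under 0.05, with a difference of -0.67 (SE 0.17, adjusted p 0.796). The red blood cell and platelet list mean ran from 3.76 to 4.90 in ad libitum and from 3.96 to 5.22 in control dogs, and ALAS2, the erythroid haem enzyme, differed by -0.19 (SE 1.11), the erythrocyte glycophorin GYPC by -0.03 (SE 0.18) and the platelet chemokine PPBP by -0.30 (SE 0.97). Skeletal muscle markers, which check the tissue label, had list means of 14.94 to 15.50 in ad libitum and 15.27 to 15.48 in control dogs. Skeletal actin, ACTA1, was at 16.44 ± 0.02 (SD) in ad libitum dogs and 16.41 ± 0.04 (SD) in controls, and MB, TTN and MYH7 differed by 0.07 (SE 0.09), -0.01 (SE 0.10) and 0.16 (SE 0.12). RNA quality, read as the 3' minus the 5' GAPDH control value, stood at 2.21 ± 0.068 (SD) for the ad libitum arrays, against 2.09 ± 0.107 (SD) for the control arrays. It was highest in dog 2, and dog 5, at 2.15, lay within the control range. The same measure for actin was 4.94 ± 0.251 (SD) for the ad libitum arrays, against 4.76 ± 0.475 (SD) for the control arrays. Dog 5, at 5.25, was the highest ad libitum dog for actin and lay below control dog 3, at 5.32, and the part of RNA quality in the differences was not tested.

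**Figure D4:**
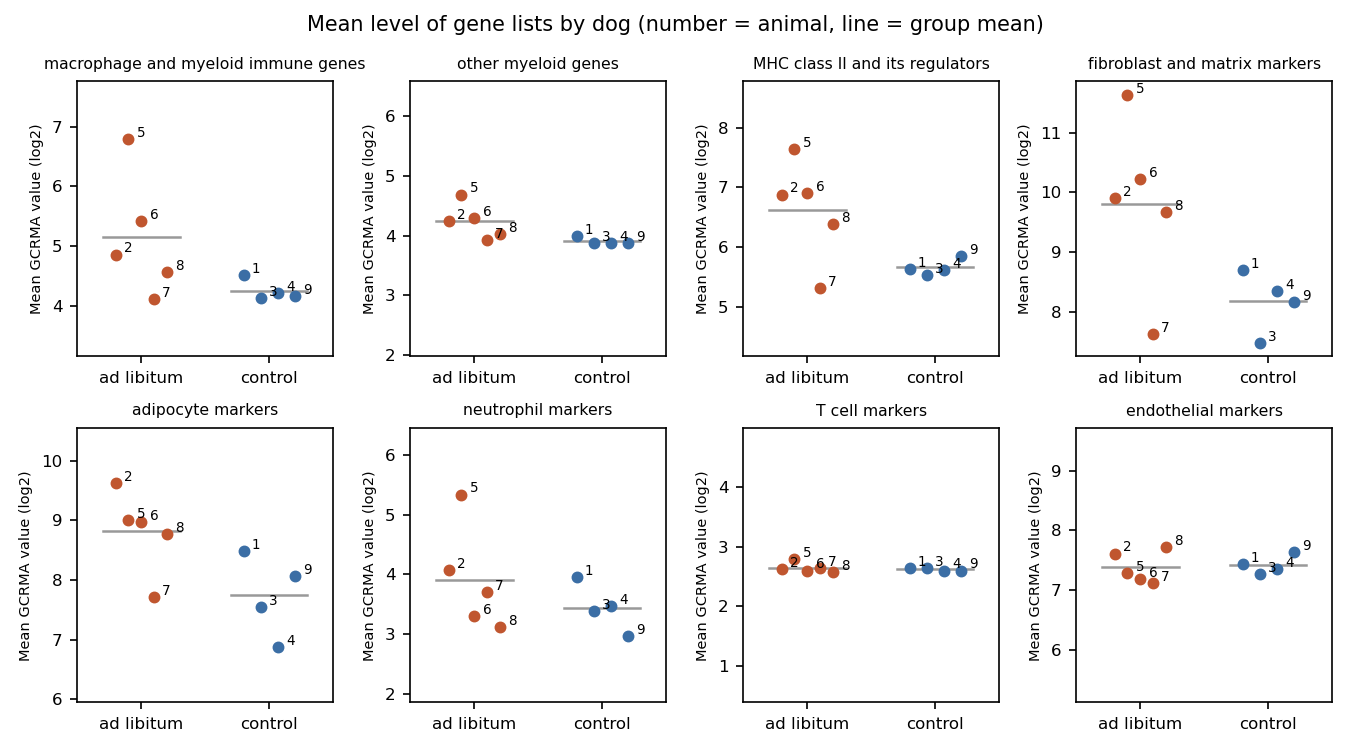
The mean GCRMA value (log2) of 8 gene lists in each dog (points, labelled by animal number), with the group mean (grey line) and the same height of axis in each panel. Dog 5 is highest for the myeloid, class II, matrix and neutrophil lists and dog 2 for the adipocyte list, and T cell and endothelial markers show little spread between dogs.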

How the data were processed

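The deposited values were made by the authors with GCRMA, per the submitters' processing notes, and were read as log2 because of their range, 0.652 to 16.6. GCRMA subtracts a background estimated from probe sequence, equalises the arrays by quantiles and gives 1 value per probe set. A shift of most transcripts would therefore not appear, and low values are compressed to a floor. Total RNA was extracted with Trizol and labelled with biotin, per the labels. Of 43035 probe sets 111 controls were left out. Names came from the 2016 platform annotation: 29264 probe sets had 1 symbol, 439 several (5 of these with a gene described here, not used) and 13332 none. Entrez IDs of 38 of the 40 genes matched a RefSeq table made on UU_Cfam_GSD_1.0, with 38 symbols unchanged.

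Groups came from the titles, with the animal number as replicate. Array pairs correlated at 0.976 to 0.994 and 0 were identical. The labels name no batch. The model was limma's (version 3.58.1 under R 4.3.3, with lmFit, eBayes, two-sided, 7 residual and 2.32 prior degrees of freedom), without covariates, run on 18394 probe sets above log2 4 on at least 4 arrays, with p-values adjusted by Benjamini-Hochberg over all of them. The fit was tested on simulated data with normal noise, independent between probe sets and of the same spread in both groups. The genes described here had a wider spread in ad libitum dogs, which that simulation does not cover. The threshold was an adjusted p under 0.05. The genes and lists were chosen with earlier results of these data known. All 41 genes could be named. Values of every dog are given for the tested genes and for the gene of each role with the highest mean. Of the other lists, the first 4 tested genes in list order are named. LCP1, VSIG4, CD68, CD48 and GPNMB, given for every ad libitum dog, were picked once their values were known. So were SLC11A1, STAB1, CIITA, IFI30, IL7R, CD8A, MMP9, LTF, LCN2 and FLT1. As alternatives, the following were run: other filters, a floor, median centring, cyclic loess, eBayes with trend and robust estimation, array weights, the mean over a gene's probe sets, and leaving out each dog.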

Additional observations from a re-analysis of the deposited data

Results flagged for a closer look

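Within a group, a dog was singled out when its gap to the nearest other dog was a large part of the group's range (above Dixon's critical ratio). Of 80 groups examined (40 genes in 2 groups), 14 had such a dog. The critical ratio is set for about 5% of independent groups. The 80 groups are the same 9 dogs read over many genes and are not independent, so the 14 cannot be judged against that share. All 8 cases in the ad libitum group were high values of dog 5: MSR1 at 4.62 (nearest 2.88), SPI1 at 3.57 (nearest 2.44), C1QB at 7.08 (nearest 5.35), FCER1G at 3.16 (nearest 2.80), ITGAM at 3.72 (nearest 2.16), ITGB2 at 6.40 (nearest 4.27), AIF1 at 4.57 (nearest 3.39) and CORO1A at 6.47 (nearest 4.51). SPI1, FCER1G and ITGAM stayed below log2 4 in dog 5 as well. The 6 cases in the control group lay below log2 4: MARCO at 3.85 in dog 3 was high, CSF1R at 2.74 in dog 3 was low, and dog 9 was low for CD68 at 3.01, CSF1 at 2.20, SPI1 at 2.23 and ITGB2 at 3.87. The control ranges of CD68, SPI1 and ITGB2 were 0.02, 0.03 and 0.01, which is the floor of these probe sets.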

How the results depend on the processing

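No paired analysis was possible because the replicate numbers are animal numbers and the groups share none. Of 311 values of the 19 tested genes under the alternatives listed above, 311 kept direction and side of the threshold, with adjusted p from 0.0997 to 1.0. The count of genes with an unadjusted limma p under 0.05, 4 of 19, was 0 of 40 with no filter. With the filter at log2 6 it was 2 of 7, and with the filter on control arrays alone 3 of 15. It was 11 with array weights and 1 with the mean over a gene's probe sets. It ran from 0 to 10 with a dog left out: 0 without ad libitum dog 2, 5 or 6 or control dog 3, 1 without control dog 4 or 9, and 10 without ad libitum dog 7. The count with a higher mean was 36 of 40 with no filter and 7 of 7 with the filter at log2 6, since other numbers of genes entered. With no filter and a dog left out it ran from 34 (without ad libitum dog 5) over 35 (without control dog 9) to 37 (without control dog 3) of 40, an alternative added after seeing the data, as were the filter on control arrays and the list counts with a dog left out. Over all tested probe sets, 1088 had an unadjusted limma p under 0.05, and 1865 under array weights. With a dog left out this count was 695 to 2151 (lowest without ad libitum dog 5, highest without ad libitum dog 7). The count with an adjusted p under 0.05, 0 in all, was 1 with values under log2 4 raised to 4 (CISH, lower by a log2 difference of -2.97 in ad libitum dogs) and 0 to 1 with a dog left out (LOC489640 without ad libitum dog 8). Both were named after their values were seen. The number of arrays and the floor near log2 4 limit the sizes of low genes.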
